A study of Homo sapiens with 24 samples.

Results

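The replication-dependent histone genes code for the core histones H2A, H2B, H3 and H4 and the linker histone H1 that package newly made DNA. On the array they were taken as every gene whose name begins HIST1H, HIST2H, HIST3H or HIST4H, the older symbols of the array design, which gave 65 of 30142 genes measured by 86 probes. They comprised 6 H1, 15 H2A, 17 H2B, 13 H3 and 14 H4 genes, and 54 of them belong to the HIST1 cluster on chromosome 6. Where a gene had several probes, the probe that was brightest over all arrays stood for it. The rule used names only and no measured value.

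The study asked what the forkhead transcription factor FOXP1 controls in diffuse large B-cell lymphoma (DLBCL). FOXP1 was silenced for 48 h with 1 µM of either of 2 siRNAs, siFOXP1 #1 (labelled siFOXP1_308) or siFOXP1 #2 (siFOXP1_309), in DB and K422, which are germinal center B-cell-like (GCB) lines, and in HBL-1 and OCI-Ly3, which are activated B-cell-like (ABC) lines. Control cells of the same line received a non-targeting Stealth duplex (siCtrl), and every group, controls included, was electroporated by Nucleofection. With 3 replicates for each siRNA in each line there were 24 two-color arrays, 6 per line. The Cy3 dye always marked the silenced sample and Cy5 its control, so a dye bias of a probe and an effect of silencing cannot be told apart. Each line stands for itself, being a single established culture.

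Unlike almost every other mRNA, replication-dependent histone mRNAs end in a conserved stem-loop instead of a poly(A) tail. The stem-loop-binding protein SLBP holds this structure, the coactivator NPAT drives transcription at the onset of S phase, and the mRNAs are destroyed when DNA synthesis stops. Their abundance therefore follows the share of a culture in S phase as well as transcription. In bulk RNA, fewer cells in S phase and less histone mRNA per cell cannot be told apart. Some members, among them HIST1H1C, HIST1H2AC, HIST1H2BD, HIST1H2BK and HIST2H2BE, are also known to give polyadenylated transcripts. The labels did not name the primer used in labelling, so it is not known here which form each probe mostly read.

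The members are near copies of each other, which limits what a 60-base probe can separate. A run of at least 20 bases was shared with the main probe of another member by 22 of the 65 main probes, always within a histone type. There were 10 such genes of H2B, 6 of H2A, 6 of H4 and none of H1 or H3. The longest run, 41 bases, joined the HIST1H2BN probe (hg18 chr6:27914524-27914583, plus strand) and the HIST2H2BE probe (chr1:148124654-148124713, minus strand), which are shown with that run in capitals.
HIST1H2BN: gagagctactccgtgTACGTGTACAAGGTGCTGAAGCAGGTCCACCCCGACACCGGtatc
HIST2H2BE: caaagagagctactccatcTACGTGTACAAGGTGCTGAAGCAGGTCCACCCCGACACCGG
Probes were compared only with each other and not with the mRNAs of other members. A probe that shares no run, as in H1 and H3, may therefore still read a copy. Values of any member may contain signal from its copies, and members of a type were therefore not counted as independent measurements.

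Probes of 4 H4 genes that fell on silencing in HBL-1 alone are shown. The H4 genes that fell in DB, K422 or OCI-Ly3 are not among them. Capitals mark the 17 bases that all 4 share. They map in hg18 to chr6:26393476-26393535 (HIST1H4H, minus strand), chr6:27215204-27215263 (HIST1H4I, plus), chr1:148071020-148071079 (HIST2H4B, plus) and chr6:26348797-26348856 (HIST1H4F, plus).
HIST1H4H: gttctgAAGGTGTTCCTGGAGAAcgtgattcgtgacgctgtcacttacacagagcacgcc
HIST1H4I: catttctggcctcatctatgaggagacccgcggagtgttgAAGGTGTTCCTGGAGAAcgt
HIST2H4B: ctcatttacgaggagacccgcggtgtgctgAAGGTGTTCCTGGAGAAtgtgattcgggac
HIST1H4F: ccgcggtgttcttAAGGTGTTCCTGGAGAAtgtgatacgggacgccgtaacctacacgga

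A few probes reached the stem-loop itself. Its conserved core of 16 bases, searched on the strand of the probe, stood in 2 of the 86 member probes and in 0 of 40914 other probes. Both are shown over at most 30 bases, with the core in capitals, from hg18 chr1:148089759-148089788 (HIST2H2AA4, plus strand) and chr6:27906933-27906956 (HIST1H4K, minus).
HIST2H2AA4: tcaaaaGGCTCTTTTCAGAGCCacccacgt
HIST1H4K: acaaaaGGCCCTTTTTAGGGCCcc

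FOXP1 RNA was below control on 6 of 6 arrays in every line, with a mean log2 ratio nearest to 0 in K422 (-1.34 ± 0.47, SD, n = 6). All 5 B-cell markers were well above background in the control channel of every line. The GCB marker MME was well above background on no array of HBL-1 or OCI-Ly3, and the ABC marker IRF4 on none of DB or K422. Of the 3 CD3 genes, markers of T cells, all were well above background on 6 of 6 arrays of K422, CD3E alone in HBL-1 and OCI-Ly3, and none on more than 2 arrays of DB. Of 3 myeloid markers 1 or 2 were above background per line, of 3 epithelial markers 2 or 3, and of 3 fibroblast markers at most 1, with COL1A1 and COL1A2 on no array. Their part in the results was not tested. Scan session 1 held DB and OCI-Ly3, and session 2 the remaining lines. Over an array, 57.2% to 64.38% of probes were well above background in at least 1 channel.

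Histone genes were among the brighter features. In both channels, 58 of 65 members were well above background on at least 4 of the 6 arrays of every line, against 13967 of all 30142 genes, and no member was saturated. The exceptions included HIST1H1T, the testis linker histone, HIST1H2AA and HIST1H2BA, also known from testis, HIST1H1A, HIST1H4G and HIST4H4. These 6 were well above background on at most 2 of 24 arrays, and no ratio is given for them. HIST1H2AL, an H2A gene, was dim in OCI-Ly3, where the control channel rose well above background on 2 of 6 arrays.

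On silencing, histone genes were mostly below control, most broadly in HBL-1. Ratios are log2(siFOXP1/siCtrl), so that negative values are lower on silencing. A gene was called when its Benjamini-Hochberg adjusted p was under 0.05 and its log2 ratio at least 0.5 from 0. In HBL-1, 22 of 65 members fell and 0 rose, which is 33.8% of the members, where 4.17% of all 30140 genes tested fell and 5.73% rose. In DB, 5 members fell (7.69%) and 0 rose, where 0.829% of all genes fell and 1.33% rose. OCI-Ly3 likewise had 5 members lower (7.69%) and 0 higher, where 1.62% of all genes fell and 2.8% rose. In K422, 1 member fell (1.54%, where 2.1% of all genes did) and 1 rose (1.54%, where 2.34% did), so its shares were near the background. Among the 13967 genes well above background in every line, the shares that fell and rose were 4.22% and 6.73% for HBL-1, 0.465% and 0.723% for DB, 0.981% and 1.84% for OCI-Ly3, and 1.52% and 1.62% for K422.

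Many changes were too small to be called. Without the limit on size, HBL-1 had 53 members, DB 30 and OCI-Ly3 18 with an adjusted p under 0.05, all of them below 0, while K422 had 12 below and 2 above. By the same rule 15% of all genes were lower and 16.2% higher in HBL-1, 5.96% and 6.17% in DB, 9.12% and 9.65% in OCI-Ly3, and 9.59% and 9.81% in K422. The median over all 65 members was lowest in HBL-1 (-0.42), followed by DB (-0.33), OCI-Ly3 (-0.19) and K422 (-0.13), and the median over all genes was 0 in each. Members below 0 on 6 of 6 arrays numbered 57 in HBL-1 (87.7%, against 16.3% of all genes) and 32 in OCI-Ly3 (49.2%, against 11.3%). The same count was 19 in DB (29.2%, against 4.65%) and 16 in K422 (24.6%, against 11.1%). Members above 0 on 6 of 6 arrays were 6 for OCI-Ly3 (9.23%, against 11.5% of all genes), 4 for K422 (6.15%, against 11%), 0 for DB (against 5.11%) and 0 for HBL-1 (against 17%).

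The HBL-1 count depended on the correction of background and dye. With normexp and loess 6 members fell in HBL-1, where 286 of all genes fell and 692 rose, and with normexp and median centring 39 did, where 1871 of all genes fell and 158 rose, in place of the 1258 and 1727 of the values reported here. Median centring thus put 92.2% of all called genes in HBL-1 on the lower side, in place of 42.1%. The median in HBL-1 was below 0 under each, at -0.32 and -0.55. The DB calls rested on replicate 2. Its arrays had medians over the members of -0.60 with siFOXP1 #1 and -0.53 with #2, while the other 4 DB arrays lay between -0.20 and -0.06. Without replicate 2, 0 members were called in DB and the median was -0.13. The arrays of both siRNAs that carry 1 replicate number moved together in DB, so its 6 arrays are not 6 separate measurements. With the arrays of a number averaged to 3 values, 1 of the 5 DB calls remained, that of HIST1H2BC (adjusted p = 0.0425, limma), and the adjusted p of the other 4 ran from 0.0507 to 0.122. The averaging was run for DB alone. In HBL-1, deviations of the arrays of numbers 1 and 2 correlated about as in DB (0.213 and 0.182 over all genes), and those of number 3 less (0.075). Over the members alone the HBL-1 values were -0.049, 0.108 and 0.002, against 0.652, 0.515 and 0.733 in DB. In K422 the medians over the members also ran by number, at 0.02 and -0.02, -0.13 and -0.06, and -0.33 and -0.31. The 6 arrays of those lines may therefore not be 6 separate measurements either.

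**Figure D1:**
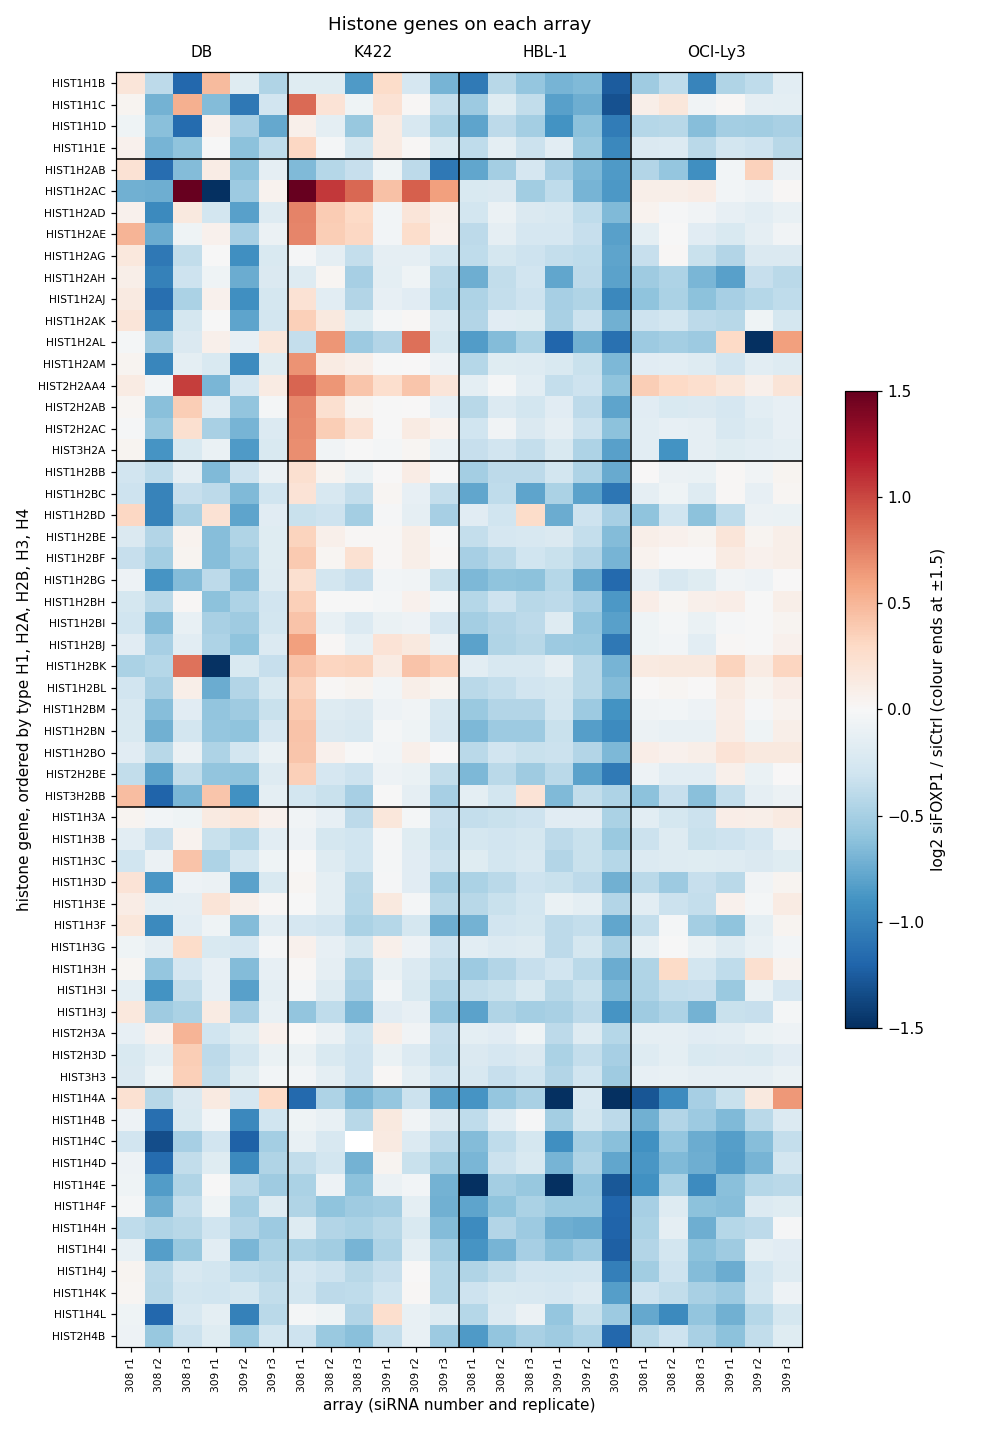
Log2 ratio of siFOXP1 over siCtrl for the 59 histone genes that rose above background (rows, by type from H1 to H4) on each of 24 arrays (columns, by line, siRNA number and replicate), in color, with a blank cell for a spot left out as an outlier. HBL-1 columns are blue for nearly every gene, while in K422 H2A and H2B rows are near white or red and H4 rows blue.

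H4, which pairs with H3 at the center of the nucleosome, was the type lowered most evenly across lines. Over the 12 measured H4 genes the median ran from -0.62 (HBL-1) through -0.43 (OCI-Ly3) and -0.40 (DB) to -0.35 (K422), and all 12 were below 0 in every line, which held for no other type. Medians per array were below 0 on 6 of 6 arrays in each line. HBL-1 had 8 called H4 genes, OCI-Ly3 4, DB 3 and K422 1. The H4 median was below 0 in every line under each other normalization tried. The deposited matrix gave the same H4 medians as reported here and is not a separate check.

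HIST1H4C had the lowest H4 ratio in DB, running from -1.33 through a median of -0.50 to -0.28 over 6 arrays (-0.69 ± 0.46, SD, n = 6, adjusted p = 0.00192). In OCI-Ly3 it ran from -0.91 to -0.36 (-0.68 ± 0.19, adjusted p = 0.00122) and in HBL-1 from -0.91 to -0.26 (-0.56 ± 0.23, adjusted p = 0.0025). In K422 its 5 usable arrays spread from -0.39 to 0.14 and it was not called. HIST1H4C and HIST1H4D were the 2 members that fell in 3 lines, and no member fell in all 4. In DB neither call remained when the arrays of a replicate number were averaged, as given above.

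HIST1H4D ran from -0.88 to -0.28 in OCI-Ly3 (-0.68 ± 0.21, n = 6, adjusted p = 0.000831), the lowest H4 value of that line. It fell in DB (-0.53 ± 0.43, adjusted p = 0.00877) and HBL-1 (-0.53 ± 0.23, adjusted p = 0.00304). In K422 the value was -0.36 ± 0.25, with 5 of 6 arrays below 0. HIST1H4E gave the lowest value of any member in any line, -1.01 ± 0.50 in HBL-1, or 49.8% of control, with arrays from -1.59 to -0.51 (adjusted p = 4.05e-05). It also fell in OCI-Ly3 (-0.63 ± 0.24, adjusted p = 0.00551). The values were -0.38 ± 0.31 in DB and -0.34 ± 0.30 in K422, below 0 on 6 of 6 arrays in both but not called.

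HIST1H4A was the member that fell in K422, from -1.17 through -0.63 to -0.32 over 6 arrays (-0.67 ± 0.30, adjusted p = 0.00976), and it fell in HBL-1 as well (-0.92 ± 0.62, adjusted p = 0.000405). It is dim, with the silenced channel well above background on 4 of 6 arrays in both lines. The K422 call was lost without replicate 1 (-0.56) and without replicate 3 (-0.63). In DB, its 6 arrays lay on either side of 0 (-0.04 ± 0.29). HIST1H4L fell in DB (-0.51 ± 0.47) and OCI-Ly3 (-0.62 ± 0.25) and was -0.10 ± 0.22 in K422. Its DB call was also lost when the arrays of a replicate number were averaged.

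The 4 coding probes shown above gave closely grouped values in HBL-1, where all 4 genes fell. HIST1H4H was at -0.77 ± 0.27, HIST1H4I at -0.75 ± 0.27, HIST1H4F at -0.70 ± 0.26 and HIST2H4B at -0.69 ± 0.28 (n = 6 each). None of their 24 values was above 0, the highest being the -0.44 of HIST1H4H. Since the probes share bases, these are not 4 separate observations.

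**Figure D2:**
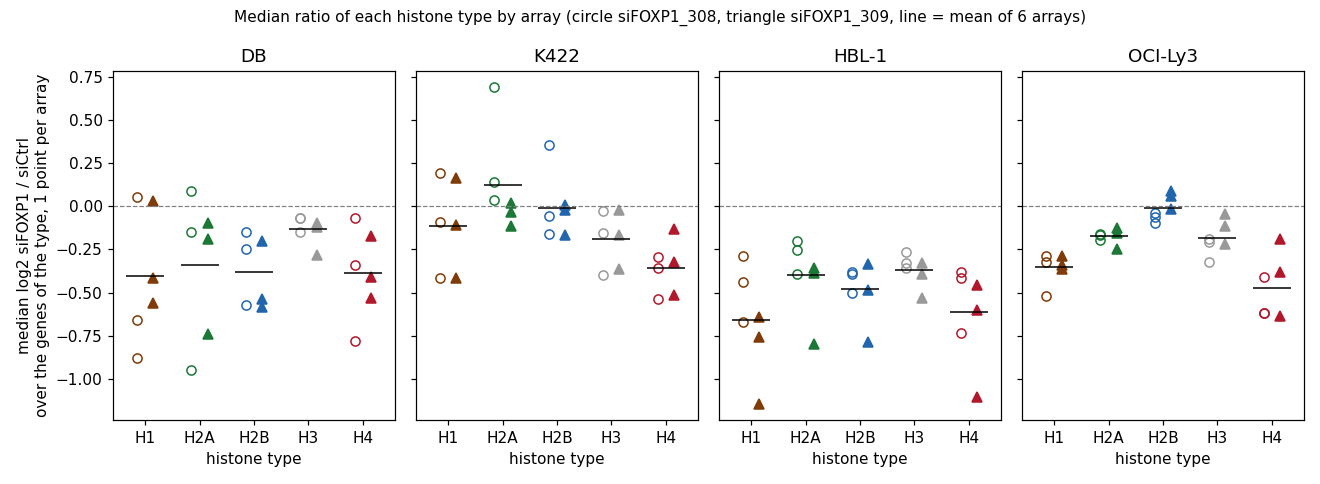
Median log2 ratio over the measured genes of each histone type (x axis) on each array, in a panel per line, with circles for siFOXP1 #1, triangles for siFOXP1 #2 and a line at the mean of 6 arrays. H4 points lie below 0 on all 24 arrays, whereas H2A and H2B points lie well below 0 in HBL-1 and near 0 or above in K422.

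H2B, which dimerizes with H2A, separated the lines. In DB and HBL-1 all 16 measured H2B genes were below 0, with medians of -0.35 and -0.47. The median was 0.00 in K422, with 8 of 16 below 0, and -0.03 in OCI-Ly3, with 10 of 16 below 0. Both signs depended on the normalization, the median being 0.02 and 0.03 with normexp and loess and -0.13 and -0.02 with normexp and median centring. The H2B genes called lower numbered 6 in HBL-1 and 1 in DB, and none was called in K422 or OCI-Ly3.

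HIST1H2BC fell in both DB (-0.50 ± 0.28, at most -0.30, adjusted p = 0.00222) and HBL-1 (-0.72 ± 0.25, from -1.08 to -0.38, adjusted p = 1.65e-05). In K422 and OCI-Ly3 the same probe spread on both sides of 0, at -0.14 ± 0.23 and -0.08 ± 0.09. HIST1H2BG (-0.71 ± 0.25), HIST2H2BE (-0.65 ± 0.26), HIST1H2BN (-0.64 ± 0.22), HIST1H2BJ (-0.64 ± 0.25) and HIST1H2BM (-0.53 ± 0.21) were the other H2B genes that fell in HBL-1, each on 6 of 6 arrays. HIST1H2BK, known also as a polyadenylated transcript, was the highest H2B gene in K422 (0.33 ± 0.11) and in OCI-Ly3 (0.20 ± 0.10), above 0 on 6 of 6 arrays in both, though not called in either. In DB it ranged from -1.48 to 0.82, the widest spread of the H2B genes there.

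H2A, the partner of H2B, had a median of 0.13 in K422 over 13 measured genes, and between 0.03 and 0.17 under the other normalizations. Its sign turned with the siRNA, the median being 0.29 with siFOXP1 #1 and -0.04 with #2. The array of #1 replicate 1 had a median of 0.69, while the other 5 lay between -0.12 and 0.14. The H2A median was -0.39 for HBL-1, -0.36 for DB and -0.19 for OCI-Ly3. In HBL-1 all 13 were below 0 on 6 of 6 arrays. The 4 H2A genes that fell there were HIST1H2AL (-0.83 ± 0.28), which is not among the 13, HIST1H2AB (-0.60 ± 0.22), HIST1H2AH (-0.56 ± 0.24) and HIST1H2AJ (-0.51 ± 0.23). HIST1H2AH also fell in OCI-Ly3 (-0.54 ± 0.18, from -0.82 to -0.34, adjusted p = 0.00384). In DB the H2A medians per array ran from -0.95 to 0.09 and no H2A gene was called.

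HIST1H2AC was the member that rose, in K422 alone, at 0.44, 0.88 and 1.52 for the lowest, median and highest of 6 arrays (0.90 ± 0.38, adjusted p = 0.0148, 186% of control). All 6 K422 arrays were above 0 and all 6 HBL-1 arrays below 0 (-0.48 ± 0.26). In DB it ranged from -1.83 to 1.69. This main probe is named by an Ensembl transcript and starts at hg18 chr6:26246801, 14.4 kb from the gene's other probe. The other probe is named by the RefSeq mRNA and starts at chr6:26232382, beside the HIST1H2BC probe (start 26231962). It passed background in both channels on 0 of 6 K422 arrays, so the rise was not measured by the RefSeq mRNA probe. The call was lost when any K422 replicate was left out, with values from 0.86 to 0.98. HIST2H2AA4, whose probe holds the stem-loop shown above, was 0.47 ± 0.26 in K422 (from 0.18 to 0.87, adjusted p = 0.00534), short of the limit on size, and above 0 on 6 of 6 arrays. By this probe HIST2H2AA4 was also the highest measured H2A gene in DB (0.05 ± 0.57), OCI-Ly3 (0.23 ± 0.10) and HBL-1 (-0.27 ± 0.20). A dimmer second probe of the gene, still clear of background in every line, gave 0.23 ± 0.36 in K422. Its K422 arrays ran from -0.27 to 0.84, so the K422 value was less certain by that probe. The second probe gave -0.19 ± 0.66 in DB, 0.24 ± 0.10 in OCI-Ly3 and -0.29 ± 0.17 in HBL-1.

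H3, the partner of H4, had the median nearest to 0 of the types in DB and in HBL-1. Over 13 genes it lay between -0.13 in DB and -0.35 in HBL-1, and all 13 were below 0 in K422, HBL-1 and OCI-Ly3. HIST1H3J alone fell, in HBL-1 (-0.59 ± 0.20, from -0.88 to -0.39, adjusted p = 0.000145). It was also the lowest H3 gene in K422 (-0.42 ± 0.24) and OCI-Ly3 (-0.40 ± 0.23), below 0 on 6 of 6 arrays in both but under the limit on size. The lowest in DB was HIST1H3I (-0.42 ± 0.36), while HIST1H3A was at 0.05 ± 0.09 there.

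Linker histone genes of H1 had the lowest median of any type in HBL-1, -0.68 over 4 measured genes, and 3 of them fell. HIST1H1B was at -0.78 ± 0.31 (from -1.25 to -0.42), HIST1H1D at -0.71 ± 0.25 and HIST1H1C at -0.66 ± 0.39, and HIST1H1E, at -0.42 ± 0.31, was not called. HIST1H1D also fell in DB (-0.51 ± 0.45, 5 of 6 arrays below 0, adjusted p = 0.0114), a call lost when the arrays of a replicate number were averaged. In OCI-Ly3 HIST1H1D ran from -0.64 to -0.41 (-0.50 ± 0.08) and was short of the limit on size. HIST1H1C, also made as a polyadenylated transcript, was 0.14 ± 0.40 in K422 and -0.01 ± 0.13 in OCI-Ly3.

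Of the 5 members known to give polyadenylated transcripts, all had means below 0 in HBL-1 and in DB. HIST1H1C and HIST2H2BE fell in HBL-1, whereas HIST1H2AC (-0.48 ± 0.26) and HIST1H2BK (-0.32 ± 0.21) were not called. HIST1H2BD was not called there by its main probe, which reads the opposite strand (-0.29 ± 0.34), but passed the call by its own-strand probe (-0.62 ± 0.21, limma adjusted p = 5.77e-05 over all probes). In K422 HIST1H2AC alone was called, and no gene of the 5 was called in DB or OCI-Ly3.

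For 2 of the H2B genes the brightest probe read the opposite strand. The main probes of HIST1H2BD and HIST3H2BB lie within 1 kb of a probe for the gene's own mRNA that runs the other way. They are shown, with capitals for the 11 bases that the 2 opposite-strand probes share. HIST1H2BD lies at chr6:26266524-26266583 (minus strand) and, for its own strand, chr6:26266453-26266512, and HIST3H2BB at chr1:226712589-226712648 (minus strand) and chr1:226712648-226712707.
HIST1H2BD opposite strand: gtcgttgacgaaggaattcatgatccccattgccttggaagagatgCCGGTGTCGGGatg
HIST1H2BD own strand: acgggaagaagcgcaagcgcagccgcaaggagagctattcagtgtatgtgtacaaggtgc
HIST3H2BB opposite strand: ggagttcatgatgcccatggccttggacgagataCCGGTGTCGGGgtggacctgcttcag
HIST3H2BB own strand: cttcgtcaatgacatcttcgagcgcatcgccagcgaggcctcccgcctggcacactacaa
The opposite-strand probes gave nearly the same value in every line, from -0.35 to -0.29 for HIST1H2BD and from -0.36 to -0.28 for HIST3H2BB, and neither was called. The own-strand probe of HIST1H2BD read -0.43 ± 0.24 (DB), -0.02 ± 0.29 (K422), -0.62 ± 0.21 (HBL-1) and -0.02 ± 0.08 (OCI-Ly3). That of HIST3H2BB read -0.33, 0.00, -0.43 and 0.01 in the same order. Like the H2B medians, these were lower in DB and HBL-1 than in the other lines. With the own-strand probes, 23 members fell in HBL-1 in place of 22 and the other counts were the same.

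**Figure D3:**
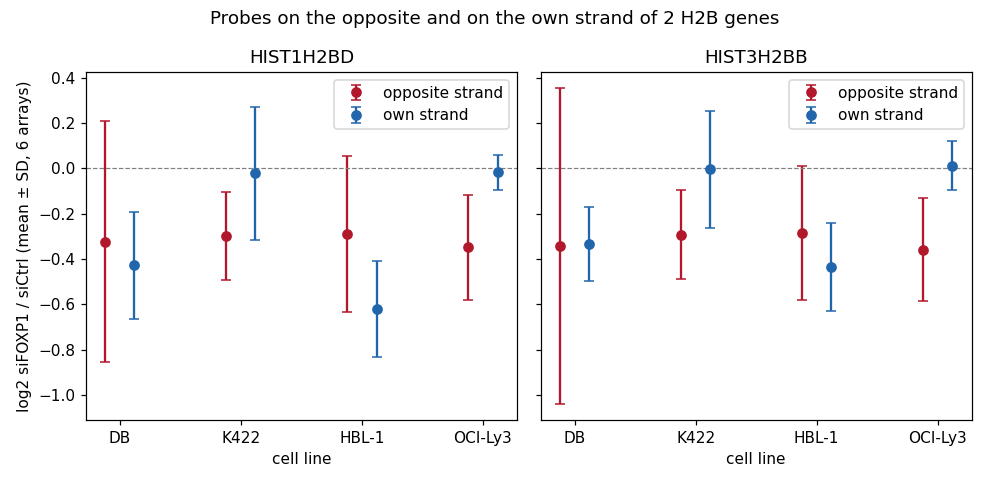
Log2 ratio of siFOXP1 over siCtrl (mean ± SD of 6 arrays) by line for the opposite-strand and own-strand probes of HIST1H2BD (left) and HIST3H2BB (right). Opposite-strand values stay between -0.36 and -0.28 in all lines, while own-strand values are near 0 in K422 and OCI-Ly3 and lower in DB and HBL-1.

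Across the 24 arrays H2B genes varied together most closely. The median Pearson correlation between 2 H2B genes was 0.90 over 120 pairs of genes, against 0.75 within H2A, 0.64 within H1, 0.54 within H4 and 0.45 within H3. Between H2B and H4 it was 0.33 over 192 pairs, and between H2A and H2B 0.64 over 208. Much of the lead of H2B went with the means of the lines and siRNAs. With those means removed, the medians were 0.76 within H2B, 0.73 within H2A, 0.65 within H1, 0.61 within H4 and 0.51 within H3. These are descriptions over arrays that share lines, and probes of a type share bases as given above.

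Most H2A genes stand head to head with an H2B gene and share its promoter. Among the RefSeq promoter windows of GRCh38.p14, all of 1 length around the start site and matched for 60 of the 65 members, 10 H2A and H2B pairs on opposite strands shared 253 to 293 bases. The octamer ATTTGCAT, the site of the OCT1 factor in H2B promoters, stood on either strand in 13 of 17 H2B and 11 of 14 H2A promoters, which are largely the same DNA. It stood in 0 of 6 H1, 0 of 11 H3 and 0 of 12 H4 promoters and in 1.83% of all 27305 promoters. CCAAT stood in 85% of member promoters and 35.4% of all, and in 3 of 12 for H4. Forkhead-type words were searched on both strands as TGTTTAC (3.33% of member promoters, 3.5% of all), as TATTTAT (25%, 5.23%) and as TATTTGT (8.33%, 3.69%). At least 1 of the words matched in 19 of 60 member promoters (31.7%, against 11.3% of all), in 7 of 17 for H2B and 1 of 12 for H4. Head-to-head windows share most of their DNA, so 1 site can count for both genes. This holds for HIST1H2AM and HIST1H2BO, HIST1H2AD and HIST1H2BF, HIST3H2A and HIST3H2BB, and HIST1H2AA and HIST1H2BA. The member shares are therefore not shares of separate sites. In HIST1H1A, HIST1H2AA, HIST1H2AB, HIST1H2BA, HIST1H2BB, HIST1H2BD, HIST1H3A, HIST1H3F, HIST1H3H and HIST2H3D, TATTTAT overlaps TATAAA. These matches cannot be told apart from a TATA box. In HIST1H2AM, HIST1H2BF, HIST1H2BH, HIST1H2BO and HIST1H4D it stands apart from TATAAA. The word TATAAA is itself common in these promoters, being in 66.7% of them and 12.3% of all. A match is a word in a window and not a bound site.

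The stretch from 130 to 21 bases before the start site is shown for 3 H2B genes that fell in HBL-1 and for HIST1H4D, which fell in 3 lines. The DB call of HIST1H4D was lost when the arrays of a replicate number were averaged. Capitals mark the octamer, CCAAT and TATAAA on either strand. The stretches are GRCh38.p14 chr6:26216709-26216818 (HIST1H2BG), chr6:27132816-27132925 (HIST1H2BJ), chr1:149886703-149886812 (HIST2H2BE) and chr6:26189133-26189242 (HIST1H4D), all on the minus strand.
HIST1H2BG: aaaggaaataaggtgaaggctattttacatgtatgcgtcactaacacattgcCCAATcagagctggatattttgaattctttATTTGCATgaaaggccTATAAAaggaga
HIST1H2BJ: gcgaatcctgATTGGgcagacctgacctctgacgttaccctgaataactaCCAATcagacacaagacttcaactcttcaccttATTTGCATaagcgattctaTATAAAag
HIST2H2BE: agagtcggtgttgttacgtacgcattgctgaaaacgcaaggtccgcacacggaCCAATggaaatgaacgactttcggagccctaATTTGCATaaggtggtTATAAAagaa
HIST1H4D: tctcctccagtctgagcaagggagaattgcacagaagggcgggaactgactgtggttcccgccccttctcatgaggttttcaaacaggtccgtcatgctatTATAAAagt

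Of the 10 head-to-head pairs, 9 were measured on both sides in every line. All 9 pairs had both genes below 0 in DB and in HBL-1. In OCI-Ly3 6 pairs had both below 0 and 3 had genes on either side of it, and in K422 6 pairs were on either side of 0, 2 had both above and 1 both below. HIST3H2BB, the partner of HIST3H2A, is read here by its opposite-strand probe. With its own-strand probe OCI-Ly3 had 5 pairs below 0 and 4 on either side, and the counts of the other lines were the same. In K422 HIST1H2AC (0.90 ± 0.38) and HIST1H2BC (-0.14 ± 0.23) were the pair farthest apart. HIST1H2AC is read here by the probe 14.4 kb from its RefSeq mRNA probe. In OCI-Ly3 HIST1H2AJ stood at -0.50 ± 0.09 and its partner HIST1H2BM at -0.01 ± 0.07, and their arrays, from -0.61 to -0.38 and from -0.08 to 0.09, did not overlap.

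**Figure D4:**
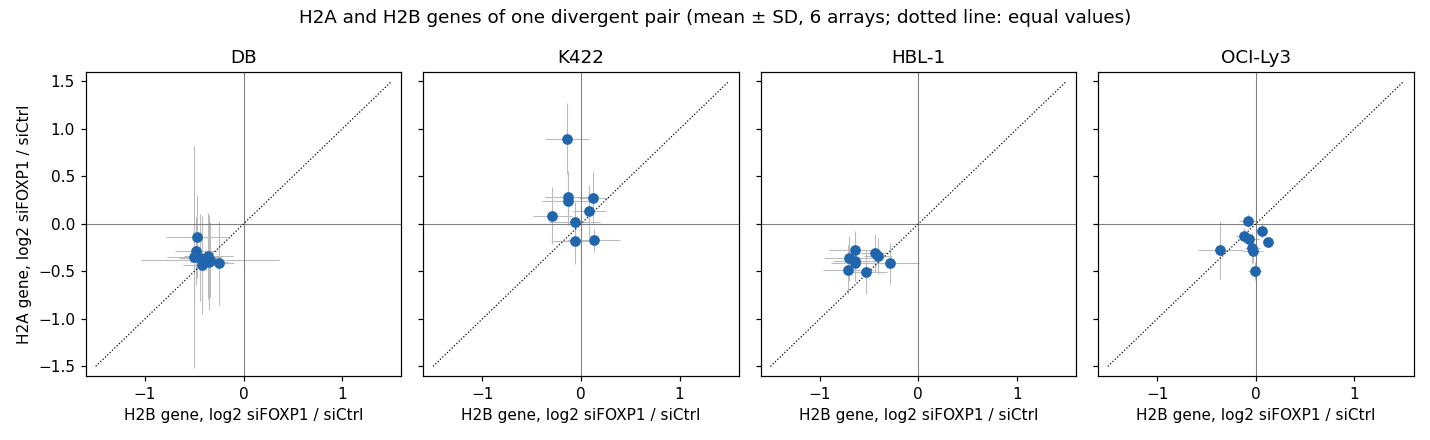
Log2 ratio of siFOXP1 over siCtrl of the H2A gene (y axis) against the H2B gene (x axis) of 9 head-to-head pairs, in a panel per line, as mean ± SD of 6 arrays, with a dotted line at equal values. HIST3H2BB is plotted by its opposite-strand probe. All points are at the lower left, below 0 on both axes, in DB and HBL-1, and they straddle 0 in K422.

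The difference between the ABC and GCB subtypes was tested on the mean of 2 lines each. No member was called, against 1.4% of all genes higher and 0.866% lower in ABC lines, and 9 of 65 had an unadjusted limma p under 0.05. Within scan sessions, OCI-Ly3 minus DB gave 0 limma calls (14 members at an unadjusted p under 0.05), where 0.965% of all genes were higher and 0.461% lower. Without the limit on size, 5 members, all H2B genes, were higher at an adjusted p under 0.05, from 0.38 (HIST1H2BO) to 0.42 (HIST1H2BF). The share of all genes by that rule was not counted. The 5 are HIST1H2BE, HIST1H2BF, HIST1H2BH, HIST1H2BL and HIST1H2BO. Each of their probes shares a run of at least 20 bases with another of them, up to 35 for HIST1H2BF and HIST1H2BL. They are therefore not 5 separate observations. With the limit on size, HBL-1 minus K422 gave 15 members lower (23.1%, where 2.03% of all genes were) and 0 higher (2.31% of all genes). These comprised 8 H2B genes, 6 H2A genes and HIST1H1C, with none of H3 or H4. The count depended on the correction of background and dye, being 6 with normexp and loess and 1 with normexp and median centring.

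The difference was -1.38 ± 0.35 (SE) for HIST1H2AC, -0.77 ± 0.12 for HIST1H2BJ, -0.73 ± 0.15 for HIST2H2AA4 and -0.57 ± 0.09 for HIST1H2BF (adjusted p from 0.000565 to 0.0165). For HIST1H2BF the HBL-1 arrays lay between -0.70 and -0.30 and the K422 arrays between 0.01 and 0.39. The arrays of both lines did not overlap for 14 of the 15 genes, the exception being HIST1H1C. Since the 15 were called from these same arrays, this separation adds no support, and its share over all genes was not counted. Leaving out K422 replicate 1 brought the number of called members to 3 and leaving out HBL-1 replicate 3 brought it to 4. Between the 2 siRNAs, no member was called in any line by limma, with 4 members (DB), 1 (K422), 0 (HBL-1) and 5 (OCI-Ly3) at an unadjusted p under 0.05. Of all genes, the shares higher and lower with #2 were 0.113% and 0.189% for DB, 0.0597% and 0.0995% for K422, 0.0929% and 0.0796% for HBL-1, and 0.129% and 0.063% for OCI-Ly3. FOXP1 itself was lower with #2 than with #1 in every line, for example at -2.19 against -1.29 in HBL-1.

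The factors that make and handle histone mRNA changed by less than the limit on size. Of 15 genes for histone mRNA synthesis and processing, none was called in any line, and the medians ran from -0.20 in HBL-1 to -0.05 in K422. Without that limit 8 were lower and 2 higher in HBL-1, 6 and 1 in K422, 4 and 1 in OCI-Ly3, and 3 and 1 in DB. By the same rule 15% of all genes were lower and 16.2% higher in HBL-1, 9.59% and 9.81% in K422. The shares were 9.12% and 9.65% in OCI-Ly3, and 5.96% and 6.17% in DB. The share of all genes lower, or higher, in all 4 lines was not counted. In all 4 lines 3 genes were lower with an adjusted p under 0.05. These were CASP8AP2, a partner of NPAT at the histone locus body, from -0.38 ± 0.21 (HBL-1) to -0.23 ± 0.14 (DB), and CPSF2 and CPSF3, subunits of the complex that cuts the 3′ end, from -0.35 (HBL-1) to -0.17 (K422) and from -0.32 (DB) to -0.13 (K422). SYMPK, the scaffold of that complex, was higher in all 4, from 0.39 (DB) to 0.24 (K422). LSM10, of the U7 particle that guides the cut, was the second one higher in HBL-1 (0.44 ± 0.21, adjusted p = 7.36e-08). In HBL-1, SLBP was at -0.03 ± 0.13 and NPAT at -0.10 ± 0.11, and in OCI-Ly3 they were at -0.20 ± 0.05 and -0.09 ± 0.16. Of 15 histone chaperones, HIRA, which deposits the variant H3.3, rose in DB (0.59 ± 0.29, adjusted p = 0.0181) and no other was called, with medians between -0.16 and 0.01.

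Some replication-independent variants and S phase genes also changed in HBL-1. Of 11 variant genes, H2AFZ (-0.58 ± 0.14) and H3F3A (-0.54 ± 0.11, n = 5) fell in HBL-1 and the linker variant H1FX rose (0.81 ± 0.29), with no call in another line and medians between -0.18 and 0.01. Of 14 S phase genes, PCNA, the sliding clamp of DNA polymerase, fell in HBL-1 (-0.61 ± 0.24), and so did TYMS, which makes thymidylate (-0.52 ± 0.18). The S phase list had medians of -0.23 (HBL-1), -0.12 (OCI-Ly3), -0.06 (K422) and -0.02 (DB). Of its 14 genes, 13 were below 0 in HBL-1, against 10 (K422), 9 (OCI-Ly3) and 7 (DB). With an adjusted p under 0.05 and no limit on size, HBL-1 had 6 S phase genes lower, OCI-Ly3 3, DB 1 and K422 0. None was higher in any line. For HBL-1 that rule gave 8 chaperones lower and 2 higher, and 5 variants lower and 1 higher. Of all genes it gave 15% lower and 16.2% higher there, and the shares for the other lines are given above. The S phase and histone medians were both lowest in HBL-1, and the part of cell-cycle phase in the histone values was not tested.

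The starting levels also differed between lines, read in the siCtrl channel as log2 signal minus the 75th percentile of the array. Only lines of 1 scan session were compared, and a call needed a 2-fold difference over 3 replicates a line. In OCI-Ly3, 18 members were higher than in DB and 12 lower, 18 and 12 of 65, against 14.1% and 11.7% of all genes. In HBL-1, 6 members were higher than in K422 (9.23%) and 13 lower (20%), against 12.4% and 13.4% of all genes.

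HIST2H2AA4 differed most. Its siCtrl levels were 0.90, -0.26 and -0.07 in the 3 DB replicates and 5.32, 5.23 and 5.37 in OCI-Ly3, a 34.7-fold difference. The adjacent HIST2H2AB and HIST2H2AC on chromosome 1 were 17.9-fold and 14.9-fold higher in OCI-Ly3, while HIST2H2BE beside them was 2.46-fold higher. HIST1H2AD (7.25-fold), HIST1H2BK (6.75-fold) and HIST1H1C (4.73-fold) followed. In the other direction HIST1H1B, HIST1H1D and HIST1H2AL were lower in OCI-Ly3 by 2.53, 2.42 and 1.98 on the log2 scale, the last with OCI-Ly3 well above background on 2 of 6 arrays, followed by HIST1H4D and HIST1H3I.

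H2B levels ran as a block. In OCI-Ly3, 11 of 17 H2B genes were higher than in DB, with a median difference of 1.1, and in HBL-1 13 of 17 were lower than in K422, with a median of -1.22. HIST1H2BK was lowest among these at -1.85 ± 0.41 (SE), from 3.25, 3.26 and 3.34 in K422 to 1.27, 1.47 and 1.57 in HBL-1. HIST1H2BH (-1.55), HIST1H2BL (-1.44), HIST1H2BO (-1.41) and HIST1H2BB (-1.34) were next. HIST1H2BJ was called in neither comparison. HIST1H2BD and HIST3H2BB, read here by their opposite-strand probes, ran the other way and were lower in OCI-Ly3 by 1.12 and 1.11. The H1 genes HIST1H1C (3.24-fold) and HIST1H1D (3.03-fold) were higher in HBL-1 than in K422, as were HIST1H2AC (4.57-fold), HIST1H2AB (2.30-fold) and HIST1H2AL (2.28-fold). No H4 gene was called between HBL-1 and K422. The siCtrl RNA of a line is also the denominator of its ratios, and so these levels are not independent of the ratios above.

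**Figure D5:**
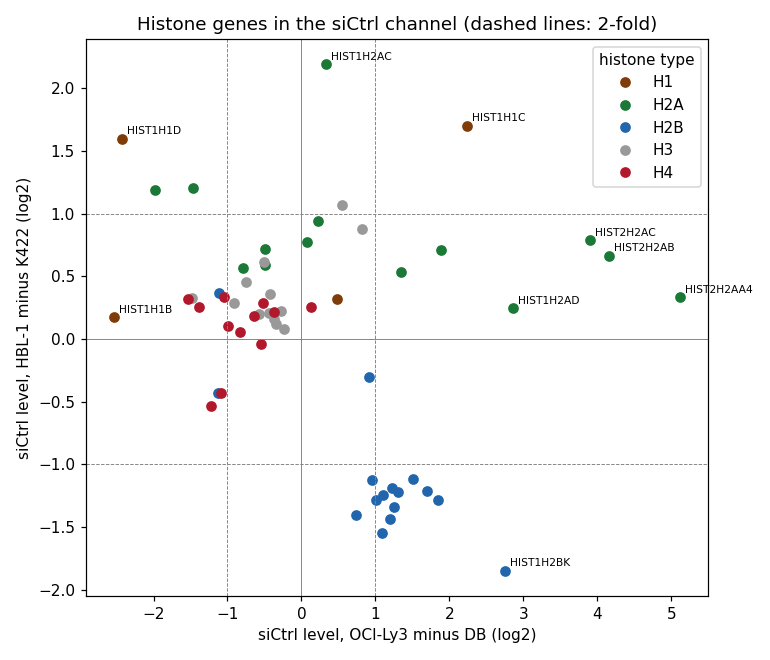
Difference in siCtrl level between OCI-Ly3 and DB (x axis, log2) against that between HBL-1 and K422 (y axis, log2) for 59 histone genes, colored by type, with dashed lines at 2-fold. Most H2B genes form a group at about 1 to 2 on the x axis and -1 to -2 on the y axis, and 3 HIST2H2A genes lie at the far right.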

How the data were processed

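Each array's spots were read by the authors with Agilent Feature Extraction (10.5.1.1 for DB and OCI-Ly3, 10.7.3.1 for K422 and HBL-1), and the deposited files hold the intensity of both dyes and, as log10, the red to green ratio of each spot, background-subtracted and dye-normalized (linear and lowess) within its array. The authors also deposited a matrix of log2 ratios made in GeneSpring GX. Here LogRatio was turned to log2(siFOXP1/siCtrl), and 1639 control spots and 113 to 469 outlier spots per array were left out. In R 4.3.3, limma 3.58.1 fitted a mean per line and siRNA over all 24 arrays, a line's value being the mean of both siRNAs, with Benjamini-Hochberg adjustment over all genes. Values are mean ± SD over arrays. The number of arrays limits the precision. Whether the siCtrl RNA of a replicate number went onto both arrays is not stated, so arrays of a number may share it. Deviations of both arrays of a number from their group means correlated over all genes at 0.222, 0.165 and 0.284 in DB. They correlated at 0.213, 0.182 and 0.075 in HBL-1, 0.0998, 0.0745 and 0.118 in K422, and 0.0841, 0.0515 and 0.0468 in OCI-Ly3. The numbers were taken to pair the arrays in DB alone, since each other line had at least 1 number at 0.1 or less. That choice came from the data and not the labels. Over all genes it does not clearly separate HBL-1 from DB, and arrays may be paired there too. Over the 65 members alone the values were 0.652, 0.515 and 0.733 in DB and -0.049, 0.108 and 0.002 in HBL-1. They were 0.167, 0.366 and -0.213 in K422 and 0.313, 0.045 and 0.203 in OCI-Ly3. The fit was tested on simulated data.

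The members and gene lists were chosen with earlier results of these data known. Named genes are the called members, the highest and lowest measured member of each type and line, the 5 greatest siCtrl differences each way, the 5 members with polyadenylated transcripts, and FOXP1. Genes of the lists that were not called, partners in head-to-head pairs and other members such as HIST1H2BF fall outside this rule and were chosen after their values were seen, as were the HBL-1 array left out, the own-strand probes and the averaging of paired arrays. Members were matched to RefSeq by accession (65 of 65), and 60 had a promoter.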

Additional observations from a re-analysis of the deposited data

Results flagged for a closer look

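Of 62 groups of 6 arrays checked for an array far from the others, 8 had such an array, where chance would give about 3.1. HBL-1 siFOXP1 #2 replicate 3 stood apart in 4 of them, with a median over measured members of -0.78 (the other 5 arrays from -0.43 to -0.30), over H2A of -0.80, over H2B of -0.79 and a HIST1H2AJ ratio of -0.96. Without this array 19 members fell in HBL-1 in place of 22. K422 siFOXP1 #1 replicate 1 stood apart on the high side, with an H2A median of 0.69 (the others from -0.12 to 0.14) and an H2B median of 0.36 (the others from -0.16 to 0.00). In OCI-Ly3, siFOXP1 #1 replicate 3 had an H1 median of -0.52 and siFOXP1 #2 replicate 3 a HIST1H4D ratio of -0.28.

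The response of 15 members differed between HBL-1 and K422 by the test of the difference itself, a count that was 6 with normexp and loess and 1 with normexp and median centring. The HBL-1 minus K422 values on the log2 scale were -1.38 for HIST1H2AC, -0.80 for HIST1H1C, -0.77 for HIST1H2BJ, -0.73 for HIST2H2AA4, -0.65 for HIST1H2AE, -0.58 for HIST1H2AD, -0.58 for HIST1H2BN, -0.57 for HIST1H2BC, -0.57 for HIST1H2BG and -0.57 for HIST1H2BF. They were -0.54 for HIST1H2BH, -0.52 for HIST2H2AB, -0.52 for HIST2H2AC, -0.52 for HIST2H2BE and -0.51 for HIST1H2BB. Both arrays that stood apart in H2A and H2B, high in K422 and low in HBL-1, belong to these lines.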

How the results depend on the processing

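Of 34 calls of a member in a line, 12 were kept with normexp and loess, 20 with normexp and median centring, 30 with the mean over probes and 34 with the deposited matrix, and none changed sign in any setting. With the deposited matrix the medians of the histone types were those reported here, so the calls it kept are not a separate check. The causes of the losses were not tested. With normexp and loess, 3 members fell in DB, 0 in K422 and 6 in HBL-1, 0 rose in K422, HBL-1 minus K422 gave 6, and the OCI-Ly3 median was -0.10. With normexp and median centring, 2 fell in DB, HBL-1 had 39 falls, OCI-Ly3 had 3, 0 rose in K422, and HBL-1 minus K422 gave 1. Falls were then 77.2% of all genes' calls for DB, 83.5% for K422, 92.2% for HBL-1 and 44.9% for OCI-Ly3, against 38.3%, 47.2%, 42.1% and 36.6% as reported, 38.8%, 38.6%, 29.2% and 23.1% with loess, and 76.1%, 57.9%, 46.8% and 54.2% with the deposited matrix. With the deposited matrix the median of all genes moved to -0.11 in HBL-1, and the members lay 0.32 below it (-0.32). The mean over probes gave 0 rises in K422 and 9 for HBL-1 minus K422. With slide as a block, 2 fell in DB, 2 in K422, and HBL-1 minus K422 gave 7. Each line alone and the methods' t-test called 0 in DB and 22 in HBL-1. With siFOXP1 #1 alone, 4 fell and 2 rose in K422, HBL-1 had 12 falls and OCI-Ly3 had 8, and with #2 alone 1 fell in DB, 0 fell and 0 rose in K422, and 1 fell in OCI-Ly3. Leaving out a replicate gave 0 to 19 falls in DB, 0 to 4 falls and 0 to 1 rise in K422, 19 to 25 falls for HBL-1, 4 to 7 for OCI-Ly3, 0 to 1 lower for ABC minus GCB, 0 to 7 higher for OCI-Ly3 minus DB and 3 to 20 lower for HBL-1 minus K422. DB gave 19 without replicate 1, 0 without replicate 2 and 12 without replicate 3. K422 gave 2, 4 and 0 falls without replicates 1, 2 and 3, and HBL-1 minus K422 gave 3 without K422 replicate 1 and 4 without HBL-1 replicate 3. Leave-one-out medians ran from -0.40 to -0.13 (DB), -0.22 to -0.02 (K422), -0.46 to -0.36 (HBL-1) and -0.20 to -0.16 (OCI-Ly3). In the siCtrl channel they gave 17 to 21 higher and 10 to 14 lower for OCI-Ly3 minus DB, and 4 to 8 higher and 13 lower for HBL-1 minus K422. In the siCtrl channel, normexp with loess and Aquantile gave 10 members higher in OCI-Ly3 than DB and 2 higher in HBL-1 than K422.

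With the replicate number as a block, all 34 calls were kept, with 5 falls in DB and 22 in HBL-1, and HBL-1 minus K422 gave 14. That block uses 1 correlation for all lines. With the DB arrays of a number averaged, the pairing left 1 fall in DB. In K422, HBL-1 and OCI-Ly3 the numbers were not taken to pair arrays. The averaging was not run in those lines, so their counts treat 6 arrays as separate. Signal over background limits the 6 dim members and HIST1H4A.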
